A study of Juglans regia with 12 samples.

Results

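The miR165/miR166 family was described in flower buds of Persian walnut (Juglans regia), as 48 of the 931 mature sequences in the deposited miRNA table. A sequence was a member if it was matched to a miR165 or miR166 of another species. This held for 1 sequence with miR165 (jre-MIR166-11, matched to a 5p name, 14 counts in all) and 47 with miR166. The matched number does not always follow the sequence, since jre-MIR166-3, with the base of mature miR165, matched a miR166. The compared groups were buds of a precocious walnut labelled as early flower stage, the early-flowering (EF) type, and buds of a late-fruiting walnut labelled as late flower stage, the late-flowering (LF) type, with 3 small RNA libraries of each. All were grown and collected in the field in Aksu, Xinjiang, and the labels give neither an age nor a treatment. Walnut type and bud stage cannot be told apart, and no label ties the replicates to different trees, so the spread behind each p-value may be technical. The identity of the tissue was not checked against marker genes, since the mRNA table names no genes.

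miR166 and its close relative miR165 form one of the oldest microRNA families of land plants. Their main product is cut from the 3p arm of a hairpin precursor and directs cleavage of the mRNAs of class III HD-ZIP transcription factors, which in Arabidopsis include REVOLUTA, PHABULOSA and PHAVOLUTA. These factors set the upper side of leaves and floral organs, maintain the shoot apical meristem and pattern the vascular tissue, and the microRNA limits them to their domains. The 5p arm gives the opposite, or passenger, strand, which in most cells is the scarcer product. In Arabidopsis, the ARGONAUTE protein AGO10 binds miR165 and miR166 in the meristem and keeps them from their targets.

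The EF libraries held 309697, 611620 and 646408 counts of listed miRNAs and the LF libraries 614838, 447102 and 473151. These totals cover listed miRNAs only. Of the 48 members, 28 had at least 60 counts over the 6 libraries and are described singly. They held 477568 of the family's counts, or 99.96%, and the same 28 passed the filter for testing. The sequence nearest above that limit, jre-MIR166-14, had 63 counts, and the nearest below it, jre-MIR166-43, had 46. The remaining 20 sequences summed to 14, 41 and 47 counts in EF buds and to 38, 16 and 35 in LF buds.

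Most of the family's counts lie in 1 sequence and in sequences that differ from it at the 3′ end. The members were not placed on a genome, so variants of 1 precursor were not told apart from products of different precursors. The 3p sequences printed here are the most abundant ones and the most abundant one with an altered second base. Capitals mark the seed, bases 2 to 8 from the 5′ end, and T stands for U.
jre-MIR166-4: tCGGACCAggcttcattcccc
jre-MIR166-22: tCGGACCAggcttcattccct
jre-MIR166-18: tCGGACCAggcttcattcccg
jre-MIR166-16: tCGGACCAggcttcattcccct
jre-MIR166-30: tCGGACCAggcttcattccccc
jre-MIR166-3: tCGGACCAggcttcatccccc
jre-MIR166-6: tCGGACCAggcttcattcctg
jre-MIR166-44: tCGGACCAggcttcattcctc
jre-MIR166-29: tTCGGACCaggcttcattccc
jre-MIR166-32: tTGGACCAggcttcattcccc
Of these, jre-MIR166-4 is the most abundant, with 70.5% of the family's counts. The sequences jre-MIR166-22 (C21T) and jre-MIR166-18 (C21G) differ from it in the last base, and jre-MIR166-16 and jre-MIR166-30 carry 1 added base at the 3′ end. The change of jre-MIR166-3 (T17C, positions counted from the 5′ end of jre-MIR166-4) is the base by which mature miR165 differs from miR166 in Arabidopsis. jre-MIR166-29 starts 1 base earlier, which moves its seed. jre-MIR166-32 (C2T) and jre-MIR166-37 (G4A) alter the seed itself, at 519 and 332 counts in all against 336584 of jre-MIR166-4. Rare variants of 1 base were not told apart from read errors.

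The most abundant 5p sequences are shown because the one change past the threshold lies among them.
jre-MIR166-13: gGAATGTTgtctggctcgagg
jre-MIR166-21: gGAATGTTgtctggttcgaga
jre-MIR166-24: gGAATGCTgtctggttcgaga
The third, jre-MIR166-24, differs from jre-MIR166-21 by T7C, a base within the seed. Both differ from jre-MIR166-13 by C15T and G21A. The matched names do not always give the arm. Of 48 members, 18 matched a name ending in 5p, whereas 20 have a 5p sequence, judged by the longest stretch shared with jre-MIR166-4 or jre-MIR166-13. The 2 that differ, jre-MIR166-13 and jre-MIR166-14, matched names without an arm, and the first of these holds 5.61% of the family's counts. Arms are therefore given both ways. By seed, 17 sequences with CGGACCA held 92.4% of the counts, 12 with GAATGTT held 6.17%, and 3 with TCGGACC held 0.835%. The seed GAATGCT occurred in 1 sequence, jre-MIR166-24. Counts were 95.5% in sequences of 21 bases and 4.34% in those of 22 bases.

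The first question was whether the whole family differed between the bud types. The family took 17.1%, 14.3% and 13.5% of listed miRNA counts in EF buds and 14.9%, 17.6% and 16.9% in LF buds. Levels below are CPM, counts brought to a common total of listed miRNAs after TMM scaling, which equalises the libraries on the bulk of their sequences. The family sum was 181810, 142595 and 138896 CPM in EF buds and 160405, 169086 and 149374 CPM in LF buds. The groups overlapped. The means were 154434 ± 23780 CPM in EF buds and 159621 ± 9879 CPM in LF buds (SD, n = 3 each). The log2 fold change, EF minus LF, was −0.05 (SE 0.16) and did not pass the edgeR test (adjusted p = 0.789). An adjusted p under 0.05 was reached by 13.5% of the 37 tested families.

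Taken by arm, neither strand passed. Sequences without 5p in the matched name averaged 153014 ± 23980 CPM in EF buds and 158099 ± 9622 CPM in LF buds (SD, n = 3 each), a log2 fold change of −0.05 with an SE of 0.16 (edgeR adjusted p = 0.825). The 5p-matched sequences averaged 1420 ± 236 CPM in EF buds and 1522 ± 262 CPM in LF buds (log2 −0.10, SE 0.22, edgeR adjusted p = 0.757). Among 57 sums of a family and an arm, 12.3% passed. With arms read from the sequence, the 3p sum averaged 143782 ± 25726 CPM in EF buds and 150568 ± 10130 CPM in LF buds (log2 −0.07, SE 0.17, edgeR adjusted p = 0.767). The 5p sum averaged 10652 ± 1949 CPM in EF buds and 9053 ± 2033 CPM in LF buds (log2 0.23, SE 0.24, edgeR adjusted p = 0.518). The passenger strand was thus the scarcer one in each library, with 4.86, 8.77 and 9.49 counts of 5p sequence per 100 of 3p sequence in EF buds and 7.64, 4.77 and 5.71 in LF buds.

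By matched name, the log2 ratio of 5p to other counts was −7.23, −6.67 and −6.36 in EF buds and −6.74, −6.54 and −6.85 in LF buds. The groups overlapped, with means of −6.75 ± 0.44 in EF buds and −6.71 ± 0.16 in LF buds (SD, n = 3 each). The difference was −0.043 (exact two-sided permutation p = 1, adjusted p = 1 over 3 tests of composition). It was 0.20 without EF replicate 1, 0.044 without LF replicate 2 and −0.24 without EF replicate 3, so its sign rested on single libraries.

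**Figure D1:**
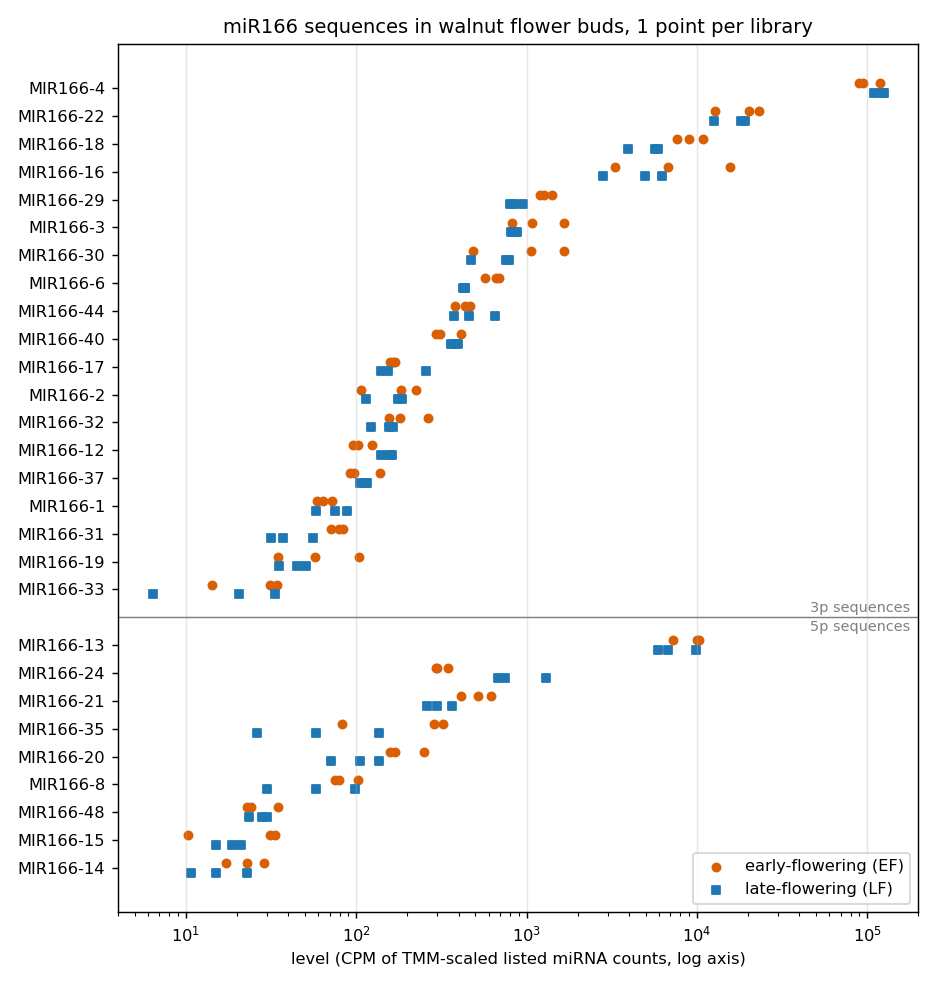
Levels of the 28 sequences described singly, in CPM on a log axis, with 1 point per library (circles, EF; squares, LF; 3 libraries each) and 3p sequences above 5p sequences. MIR166-4 is the highest in each library, and MIR166-24 is the only 5p sequence whose EF points all lie left of the LF points.

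Of the 28 sequences tested, 1 fell in EF buds and 0 rose (edgeR adjusted p under 0.05). Over all 243 sequences tested, 11.5% passed, 4.94% higher and 6.58% lower. At an unadjusted p under 0.05, 8 of the 28 passed, against 83 of 243. DESeq2 called 1 higher and 1 lower among the 28, and 15.6% of all tested sequences. Fold changes were positive for 20 and negative for 8, against 138 and 105 of all tested sequences. The median log2 was 0.44, against 0.13 over all tested sequences. Many of the 28 are close variants of each other, so these signs are not independent, and values after merging are given below. Without EF replicate 1, the library with the fewest counts, 19 were positive and the median was 0.12, against 0.077 over all sequences tested then. The ranges of the groups did not overlap for 8 of 28 sequences, or 28.6%, against 37.4% of all tested sequences. EF lay above LF in 6 of these and below in 2, against 19.8% and 17.7% of all tested sequences.

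The sequence that fell was jre-MIR166-24, a 5p strand. It stood at 292, 344 and 300.04 CPM in EF buds, against 678, 1298 and 749 CPM in LF buds, from 85, 211 and 189 counts against 386, 605 and 401. Each EF library lay below each LF library, and LF replicate 2 stood highest. The means were 312 ± 28.1 CPM in EF buds and 908 ± 340 CPM in LF buds (SD, n = 3 each), a log2 fold change of −1.54 with an SE of 0.31 (edgeR adjusted p = 0.0199). The call was lost without EF replicate 2 (log2 −1.68, edgeR adjusted p = 0.0860), without LF replicate 2 (log2 −1.23, edgeR adjusted p = 0.0752) and without LF replicate 3 (log2 −1.78, edgeR adjusted p = 0.0784). Its nearest member by sequence, jre-MIR166-21, stood at 516, 411 and 622 CPM in EF buds, against 367, 296 and 262 CPM in LF buds. These groups did not overlap either, but in the opposite direction (log2 0.74, SE 0.28), and the test was not passed (edgeR adjusted p = 0.106).

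The ratio of jre-MIR166-24 to jre-MIR166-21 needs no scaling between libraries. Per 100 counts of jre-MIR166-21 there were 56.7, 83.7 and 48.2 counts of jre-MIR166-24 in EF buds, against 185, 438 and 286 in LF buds. The sequence with C at position 7 was thus the scarcer of this pair in each EF library and the more abundant in each LF library. This ratio was picked out after the values were seen and was not tested. The 17 other 5p-matched sequences summed to 908, 1043 and 1370 CPM in EF buds, against 808, 502 and 531 CPM in LF buds, so the 5p-matched total adds values that lie in opposite directions.

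Of the remaining 5p sequences, the main one, jre-MIR166-13, stood at 7205, 10083 and 10341 CPM in EF buds, against 9883, 5889 and 6774 CPM in LF buds. The groups overlapped (log2 0.29, SE 0.27, edgeR adjusted p = 0.421), and the log2 fold change was 0.052 without EF replicate 3 and 0.54 without LF replicate 1. jre-MIR166-35 (T10G relative to jre-MIR166-13) had the highest fold change of the family, at 82.6, 286 and 325 CPM in EF buds, against 137, 57.9 and 26.2 CPM in LF buds. EF replicate 1 lay below LF replicate 1, so the groups overlapped, and the test was not passed (log2 1.66, SE 0.66, edgeR adjusted p = 0.118). It was passed without EF replicate 1 (log2 2.04, edgeR adjusted p = 0.0192), with DESeq2 (adjusted p = 0.0402) and without a filter on low counts (edgeR adjusted p = 0.00377). Without EF replicate 1, 20.4% of all tested sequences passed, against 11.5% with all libraries. The other 10 of 13 alternatives did not pass, with log2 1.26 and edgeR adjusted p = 0.292 without LF replicate 3. Per 100 counts of jre-MIR166-13 it had 1.15, 2.83 and 3.15 counts in EF buds and 1.39, 0.984 and 0.386 in LF buds.

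jre-MIR166-20 (C11T relative to jre-MIR166-13) stood at 169, 158 and 251 CPM in EF buds, against 137, 70.8 and 105 CPM in LF buds. The groups did not overlap, but the test was not passed (log2 0.89, edgeR adjusted p = 0.107). The other 4 5p sequences described singly, jre-MIR166-8, jre-MIR166-48, jre-MIR166-15 and jre-MIR166-14, each overlapped between the groups. Their means ran from 22.9 to 85.5 CPM in EF buds and from 16.2 to 62.1 CPM in LF buds, with log2 fold changes of 0.02 to 0.52. Each differs from jre-MIR166-13 in a single base, A19G, T12C, T16C and A4G in the order given.

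**Figure D2:**
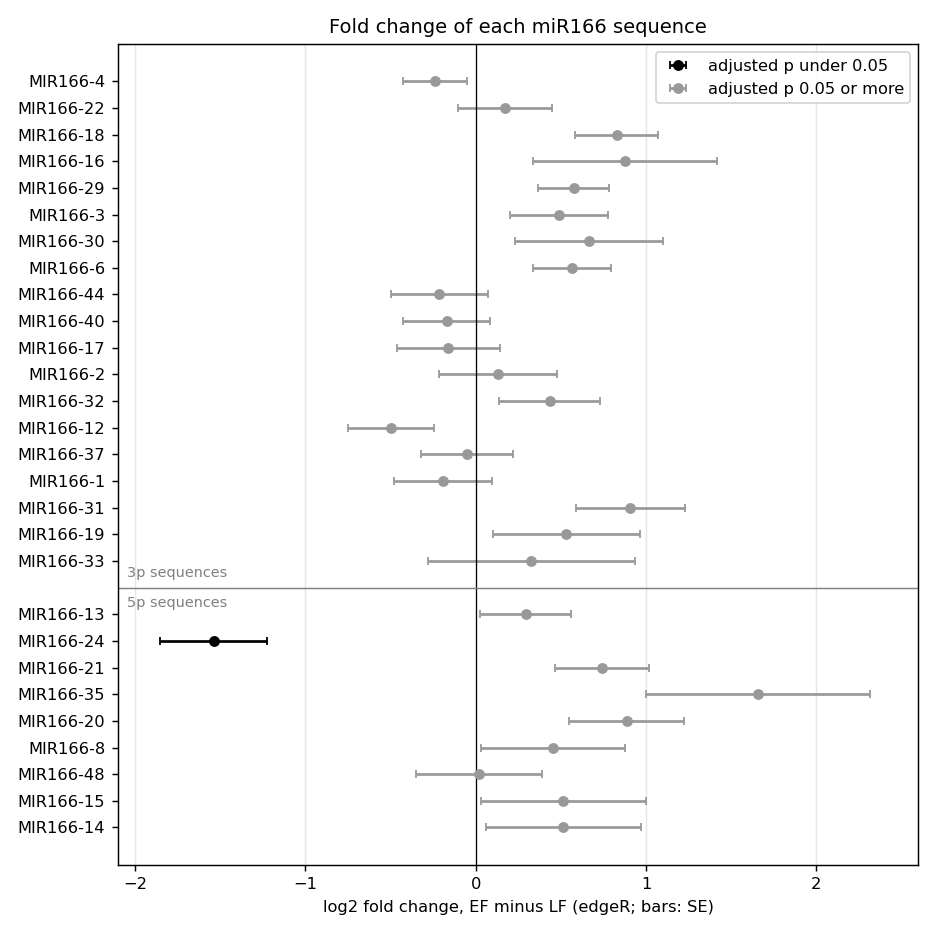
Log2 fold change of each of the 28 sequences, EF minus LF, from edgeR with bars of 1 SE (3 libraries of each type), with 3p sequences above 5p sequences. MIR166-24 at −1.54 is the only one past the adjusted threshold, and MIR166-35 at 1.66 has the widest bar.

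Among the 3p sequences, none of the 19 tested passed with edgeR (4 at an unadjusted p under 0.05). The main miR166, jre-MIR166-4, stood at 119682, 89418 and 94856 CPM in EF buds, against 122822, 125744 and 109751 CPM in LF buds. EF replicate 1 lay within the LF range (log2 −0.24, SE 0.19, edgeR adjusted p = 0.368). jre-MIR166-22, with T as its last base, also overlapped, at 23182, 20173 and 12843 CPM in EF buds and 12687, 19123 and 18086 CPM in LF buds (log2 0.17, edgeR adjusted p = 0.661). jre-MIR166-18, with G as its last base, did not overlap. It stood at 7694, 9043 and 10828 CPM in EF buds, against 5954, 5655 and 3924 CPM in LF buds (log2 0.83, SE 0.25, edgeR adjusted p = 0.0622). Without EF replicate 1 it passed (log2 0.91, edgeR adjusted p = 0.0404), as did 20.4% of all tested sequences, against 11.5% with all libraries. It did not pass in the other 12 of 13 alternatives, with log2 0.60 and edgeR adjusted p = 0.285 without LF replicate 3.

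Within the family, the main sequence gave a smaller share in EF buds. jre-MIR166-4 made up 65.8%, 62.7% and 68.3% of the family's counts in EF buds, against 76.6%, 74.4% and 73.5% in LF buds. Each EF library lay below each LF library. The means were 65.6 ± 2.80% in EF buds and 74.8 ± 1.59% in LF buds (SD, n = 3 each), a difference of −9.19 percentage points (exact two-sided permutation p = 0.1, the smallest that 3 against 3 libraries allow; adjusted p = 0.3 over 3 tests). This share does not depend on scaling between libraries. Per 100 counts of jre-MIR166-4, jre-MIR166-18 had 6.43, 10.1 and 11.4 counts in EF buds and 4.85, 4.50 and 3.58 in LF buds. jre-MIR166-22 had 19.4, 22.6 and 13.5 counts in EF buds and 10.3, 15.2 and 16.5 in LF buds. The ratio thus did not overlap for the sequence with G at the end and overlapped for that with T. Both ratios also carry the level of jre-MIR166-4, which was itself lower in EF buds on average (log2 −0.24, not passed).

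The sequence with the miR165 base, jre-MIR166-3, stood at 1659, 1073 and 822 CPM in EF buds, against 811, 876 and 843 CPM in LF buds. The groups overlapped (log2 0.49, SE 0.29, edgeR adjusted p = 0.247), and without EF replicate 1 the log2 fold change was 0.12. Per 100 counts of jre-MIR166-4 it had 1.39, 1.20 and 0.867 counts in EF buds and 0.660, 0.696 and 0.768 in LF buds, which did not overlap. These pair ratios were chosen after the values were seen and are given without a test.

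Of the 4 members of 22 bases, the most abundant varied widely between EF replicates. jre-MIR166-16, which is jre-MIR166-4 with an added T at the 3′ end, stood at 15694, 6731 and 3300.4 CPM in EF buds, against 2814, 6235 and 4942 CPM in LF buds (log2 0.88, SE 0.54, edgeR adjusted p = 0.260). EF replicate 1 stood far above the other 5 libraries, and without it the log2 fold change was 0.0100. jre-MIR166-30, with an added C, had the same order of EF libraries, at 1652, 1063 and 487 CPM, against 471, 788 and 761 CPM in LF buds (log2 0.66, edgeR adjusted p = 0.284; log2 0.12 without EF replicate 1). The 22-base jre-MIR166-31, which is jre-MIR166-18 with an added T, did not overlap, at 79.1, 83.3 and 71.4 CPM in EF buds and 31.6, 55.8 and 37.4 CPM in LF buds (log2 0.91, SE 0.32, edgeR adjusted p = 0.101). jre-MIR166-19, which is jre-MIR166-22 with an added T, overlapped (log2 0.53, edgeR adjusted p = 0.372; log2 0.023 without EF replicate 1).

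Sequences not of 21 bases made up 9.71%, 5.75% and 2.97% of the family's counts in EF buds and 2.18%, 4.33% and 4.02% in LF buds. The means were 6.14 ± 3.39% in EF buds and 3.51 ± 1.16% in LF buds (SD, n = 3 each), a difference of 2.63 percentage points (exact two-sided permutation p = 0.3, adjusted p = 0.45 over 3 tests). The difference was 0.847 points without EF replicate 1 and 4.22 points without EF replicate 3. EF replicate 1, the library with the highest share, is also the one with the fewest counts, and the part of depth in this was not tested. For 22-base sequences alone, the family's shares were 9.64%, 5.56% and 2.80% in EF buds and 2.09%, 4.21% and 3.88% in LF buds, which overlapped. Among all other listed miRNAs the 22-base share was lower in each EF library, at 12.6%, 9.52% and 11.4% in EF buds and 18.1%, 18.6% and 17.3% in LF buds.

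**Figure D3:**
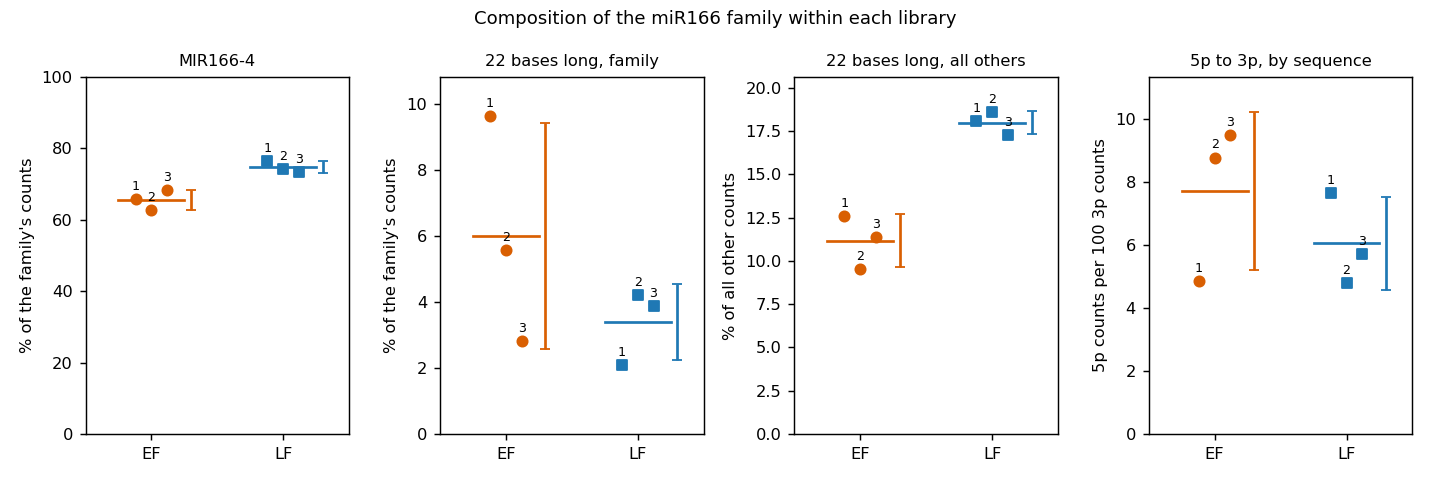
Within-library composition, with 1 point per library marked by its replicate number, a line for the mean and a bar of 1 SD (3 libraries of each type): the share of MIR166-4 in the family, the share of 22-base sequences in the family and in all other listed miRNAs, and counts of 5p per 100 of 3p sequence. The MIR166-4 share lies at 62.7% to 68.3% in EF and 73.5% to 76.6% in LF libraries, whereas the family's 22-base share and the arm ratio overlap.

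Members whose 5′ end was shifted were few. The 3 sequences with seed TCGGACC, which start 1 base before jre-MIR166-4, summed to 1366, 1427 and 1584 CPM in EF buds, against 1173, 1054 and 1045 CPM in LF buds. Most of this was jre-MIR166-29, which has T as that base, at 1197, 1260 and 1402 CPM in EF buds and 953, 839 and 799.7 CPM in LF buds (log2 0.57, SE 0.21, edgeR adjusted p = 0.106). jre-MIR166-12, with C as that base, lay the other way, at 96.3, 103 and 124 CPM in EF buds, against 162, 140 and 156.96 CPM in LF buds (log2 −0.50, edgeR adjusted p = 0.190). Neither pair of groups overlapped, and neither test was passed. jre-MIR166-1, which also starts with C, overlapped (log2 −0.19).

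Of the other 3p sequences, jre-MIR166-6 (C20T and C21G) did not overlap, at 692, 661 and 568 CPM in EF buds and 435, 423 and 437 CPM in LF buds (log2 0.57, SE 0.23, edgeR adjusted p = 0.123). The remaining 7 with a change inside or an end lost, jre-MIR166-44, jre-MIR166-40, jre-MIR166-17, jre-MIR166-2, jre-MIR166-32, jre-MIR166-37 and jre-MIR166-33, all overlapped. Their log2 fold changes ran from −0.21 to 0.43 and their edgeR adjusted p from 0.294 to 0.902. Those with a changed base in or before the seed, jre-MIR166-40 (T1C), jre-MIR166-32 (C2T) and jre-MIR166-37 (G4A), averaged 339, 201 and 109 CPM in EF buds and 380, 148 and 112 CPM in LF buds.

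Many members differ from another only in a base or an end. When each sequence was joined to a close relative (1 base changed, or at most 3 end bases different) with 10 or more times its counts, 33 of the 48 members joined another and 15 were left. Of these, 7 were tested and 1 passed. It was jre-MIR166-24, again lower (log2 −1.54, edgeR adjusted p = 0.0148). Among all 136 merged sequences tested, 14% passed, 8.82% lower. The other tested members had log2 fold changes of both signs. They were 0.74 (jre-MIR166-21), 0.33 (jre-MIR166-13), 0.17 (jre-MIR166-22), 0.13 (jre-MIR166-2), −0.10 (jre-MIR166-4) and −0.19 (jre-MIR166-1). The merged jre-MIR166-4, with 124742 ± 21871 CPM in EF buds and 133649 ± 9762 CPM in LF buds, did not pass (log2 −0.10, edgeR adjusted p = 0.740). One further row of the deposited family, jre-MIR166-10, matched miR5168 and is no member. It had 5, 14 and 6 counts in EF buds and 4, 4 and 9 in LF buds.

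**Figure D4:**
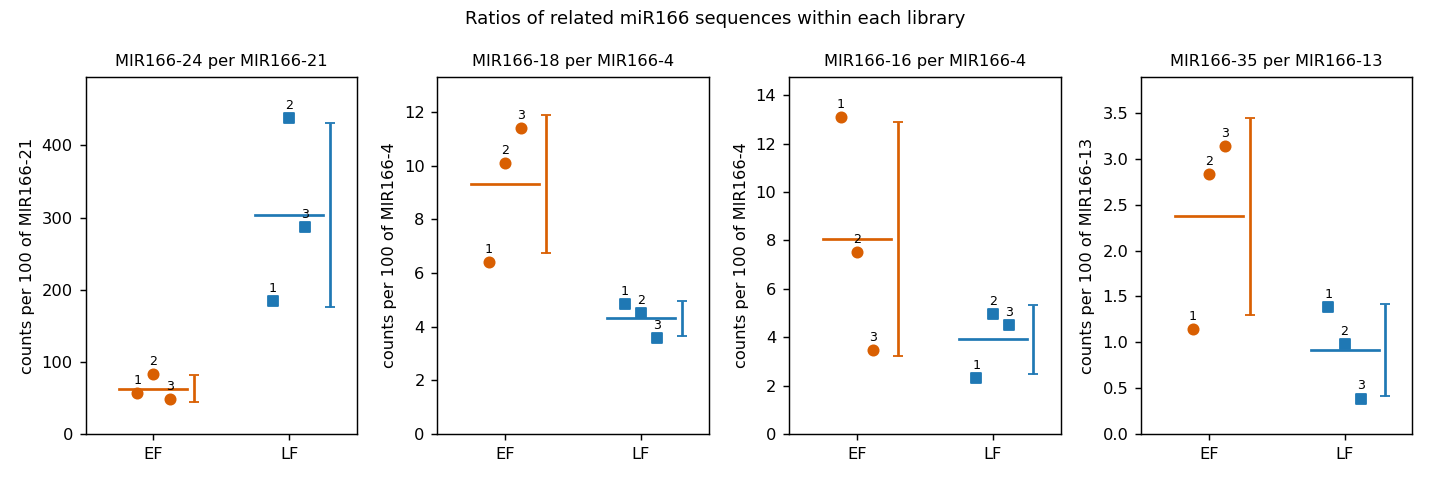
Counts of 1 sequence per 100 counts of a related one within each library (points numbered by replicate; line, mean; bar, 1 SD; 3 libraries of each type), for pairs chosen after the values were seen. MIR166-24 per MIR166-21 and MIR166-18 per MIR166-4 do not overlap between the types, at 48.2 to 83.7 in EF and 185 to 438 in LF libraries for the first, whereas MIR166-16 per MIR166-4 and MIR166-35 per MIR166-13 overlap.

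Other miRNAs of the shoot meristem and of organ polarity were set beside the family. The list held miR390, which triggers the small RNAs that silence ARF3 and ARF4, miR164 of the NAC boundary genes, miR394 of the meristem F-box gene LCR, miR171 of the HAM genes, miR319 of the TCP genes, miR396 of the GRF genes and miR160 of the ARF10 group. Of its 51 tested sequences, 5 rose and 1 fell in EF buds, or 11.8%, against 11.5% of all 243 tested sequences, so the share called was near that of the whole table. The median log2 was 0.49, against 0.13 over all tested sequences. Those that rose were 2 matched to miR171 and 3 matched to miR319. The miR319 matches were jre-MIR319-4, jre-MIR159-3 and jre-MIR159-32, and the last 2 are named MIR159 in the deposited data. The one that fell was jre-MIR160-4, at 25.4 ± 8.60 CPM in EF buds and 66.7 ± 5.52 CPM in LF buds (n = 3 each; log2 −1.40, edgeR adjusted p = 0.0393). None of the tested sequences of miR390 (3), miR164 (6), miR394 (2) or miR396 (17) passed. Their median log2 fold changes were 0.77, 0.67, 0.56 and 0.08 in that order. No sequence of the list passed (0 of 51 to 57 tested) without EF replicate 2, LF replicate 2 or LF replicate 3, where 2.79%, 2.62% and 0.741% of all tested sequences did.

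The families whose sums varied most like that of miR165/miR166 over the 6 libraries were miR9773, miR530 and miR408, with Pearson r of 0.954, 0.906 and 0.803 on log2 CPM. This likeness is a description over few libraries that share scaling factors, and the family itself varied little, with an SD of 0.15 on the log2 scale over all 6 libraries. miR9773 stood at 162, 26.1 and 30.2 CPM in EF buds and 52.7, 62.2 and 37.4 CPM in LF buds. miR530 stood at 32686, 14028 and 15637 CPM in EF buds and 33114, 31543 and 19446 CPM in LF buds. miR408, which targets copper proteins, stood at 1820, 586 and 757 CPM in EF buds and 1628, 1256 and 1403 CPM in LF buds. Like miR165/miR166, all 3 were higher in EF replicate 1 than in the other EF libraries.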

How the data were processed

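Small RNA libraries of flower buds were analysed, 3 of each walnut type, with groups and replicate numbers taken from the sample titles. The deposited miRNA table holds raw counts per mature sequence, per the file headers, each paired with a named miRNA from some other plant. For these libraries, the sources used here state no construction, mapping or naming method. The mRNA table was not used, since it names no genes and HD-ZIP III targets could not be picked out. The members and lists were chosen with earlier results of these data known.

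All 931 sequences were scaled with TMM, filtered with filterByExpr (minimum count 10; 243 sequences, 37 families and 57 family arms tested) and tested with edgeR 4.0.16 (R 4.3.3) robust quasi-likelihood fits on walnut type alone. Adjusted p-values are Benjamini-Hochberg values over all tested features (threshold 0.05). Sums used the sequence-level factors, with miR156 joined to miR157 and miR165 to miR166. Members with at least 60 counts are described singly, the 12 most abundant and 1 with another seed are printed, and the 3 families most like the sum by Pearson r are named. Ratios and shares within a library were tested by exact permutation over libraries. The fits were tested on simulated counts. A floor of 3 counts, for counting error only, corresponds to 4.76 to 10.3 CPM. Replicate libraries differed by 41.1 to 186 in chi-square per degree of freedom, more than sampling noise gives. Alternatives covered DESeq2 1.42.0, other scalings and filters, merging, a replicate block and leaving out each library in turn. Arms read from sequence were added after the data were seen.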

Additional observations from a re-analysis of the deposited data

How the results depend on the processing

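The family sum kept its sign and did not pass under any of 13 alternatives (log2 −0.22 to −0.05), nor did the sum without 5p-matched sequences (−0.23 to −0.05). The 5p-matched sum was −0.41 to 0.01743 with a library left out, positive only without LF replicate 2, and the 5p sum by sequence, an alternative added after the data were seen, was −0.01747 to 0.43, negative only without EF replicate 3; the cause was not tested. The count of called members, 1 with the settings reported, was 2 without a filter (1 higher; 4.3% of all sequences called) and 2 with DESeq2 (1 higher; 15.6%), and 0 to 3 with a library left out: 3 without EF replicate 1 (20.4% of all sequences called) and 0 without EF replicate 2 (2.79%), LF replicate 2 (2.62%) or LF replicate 3 (0.741%). The list of other meristem and polarity miRNAs gave 6 calls (11.5% of all sequences called), 2 with the replicate block (7%) and 0 to 8 with a library left out (0.741% to 20.4%). The share of jre-MIR166-4 differed by −10.5 to −7.74 percentage points over its 7 alternatives, that of sequences not of 21 bases by 0.847 to 4.22 points, and the log2 ratio of 5p-matched to other counts by −0.24 to 0.20. Without EF replicate 3, jre-MIR166-18, jre-MIR166-20, jre-MIR166-21 and jre-MIR166-29 had log2 values of 0.52, 0.48, 0.41 and 0.34, and jre-MIR166-12 had −0.78; jre-MIR166-4 had −0.41 without EF replicate 1.

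Among single sequences, 340 values kept their side of the threshold and sign, 3 lost and 4 gained a call, and 17 changed sign, in 7 sequences that never passed. jre-MIR166-48 was −0.02062 with DESeq2 size factors, −0.06326 with total counts, −0.09767 with TMM without the most abundant sequence, −0.02804 without a filter, −0.04927 with the CPM filter (10 CPM in 3 libraries), −0.02298 with DESeq2, and −0.3831 and −0.09025 without EF replicate 3 and LF replicate 2 (highest 0.14). jre-MIR166-2 was −0.02417 with TMM without the most abundant sequence, and −0.1345, −0.0782 and −0.06066 without EF replicate 2, EF replicate 3 and LF replicate 1 (highest 0.31). With a library left out, jre-MIR166-22 was −0.08368 (without EF replicate 1) to 0.21, jre-MIR166-37 was −0.28 to 0.0009299 (without EF replicate 2), jre-MIR166-17 was −0.34 to 0.1612 and jre-MIR166-44 was −0.44 to 0.03482 (both without LF replicate 1), and jre-MIR166-33 was −0.1064 (without LF replicate 2) to 0.89; the cause was not tested.

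Leaving jre-MIR159-2, the sequence with the most counts, out of the TMM step gave a median over all sequences of 0.01, against 0.13, with 18 of 28 members positive and a family median of 0.34. With the replicate block the family sum was log2 −0.05677 and 1 member was called. Deviations of same-numbered libraries were not shared (correlations across sequences −0.10, −0.070 and −0.36, and none was highest for its own number). Sequences with means near 20 CPM (jre-MIR166-48, jre-MIR166-15, jre-MIR166-33 and jre-MIR166-14) rest on 3 to 22 counts per library.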
